A study of Mus musculus with 9 samples.

Results

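Genes of mitochondrial protein import and matrix chaperones were followed in mouse precursor cells of inguinal white adipose tissue as these were differentiated towards beige adipocytes. The set was taken by gene symbol from the deposited count table. It comprises every symbol that begins with Timm or Tomm and a digit, together with Pam16, Dnajc19, Hspd1, Hspe1, Hspa9, Grpel1, Grpel2, Lonp1 and Clpp, with pseudogenes left out. It held 35 of the 55359 genes in the table, and 32 of the 35 passed the filter on low counts. RNA was sequenced from 9 libraries, 3 each at day 0, day 4 and day 8. The day 0 cells were not induced. The cells of days 4 and 8 were induced for 2 days with dexamethasone, 3-isobutyl-1-methylxanthine, indomethacin, insulin, 3,3′,5-triiodo-L-thyronine and rosiglitazone, and were then kept in medium that lacked dexamethasone, 3-isobutyl-1-methylxanthine and indomethacin. The labels give no strain, sex or age. Nor do they say that the 3 libraries of a day are separate cultures or mice, so p-values here reflect the spread between libraries only, which may be technical. The cells were lysed with Triton X-100 and cycloheximide and the lysate was cleared by centrifugation before RNA isolation, so the levels are those of RNA released by that lysis.

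Nearly all mitochondrial proteins are made in the cytosol and carried into the organelle. The TOM complex is the entry pore of the outer membrane, small TIM chaperones escort hydrophobic precursors across the intermembrane space, and the TIM22 and TIM23 complexes place proteins in the inner membrane or pass them through it. The import motor pulls precursors into the matrix, where the chaperonin folds them and the Lon and Clp proteases remove those that are damaged or unassembled. Brown and beige adipocytes are known for a dense mitochondrial content, and nearly all of the proteins in it pass through this machinery.

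Promoter windows were read for the genes that the results turn on, from RefSeq on build GRCm38.p6, each from 250 bases before to 50 bases after the annotated start. A window was found for 30 of the 35 genes, and not for Grpel2, Hspa9, Timm21, Tomm40l and Tomm7. Hspe1 is shown because it lies head to head with its partner Hspd1, Grpel1 for the largest rise of the set, Lonp1 for the rise between days 4 and 8, and Tomm34 for its fall. Capitals mark matches on either strand to the ETS motif CCGGAAG, the estrogen-related receptor (ERR) motif AAGGTCA or the heat shock motif GAANNTTC, in which N is any base. The windows are at chr1:55087898-55088197 for Hspe1 and chr5:36464935-36465234 for Grpel1, both on the plus strand. Those at chr17:56626854-56627153 for Lonp1 and chr2:164071120-164071419 for Tomm34 are on the minus strand. Each is written 5′ to 3′ along the gene's own strand.
Hspe1: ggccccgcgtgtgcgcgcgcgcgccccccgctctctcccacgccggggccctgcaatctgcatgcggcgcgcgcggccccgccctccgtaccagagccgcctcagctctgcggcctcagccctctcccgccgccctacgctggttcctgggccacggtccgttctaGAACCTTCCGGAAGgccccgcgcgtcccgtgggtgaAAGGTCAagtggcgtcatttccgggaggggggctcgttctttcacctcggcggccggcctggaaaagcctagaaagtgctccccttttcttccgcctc
Grpel1: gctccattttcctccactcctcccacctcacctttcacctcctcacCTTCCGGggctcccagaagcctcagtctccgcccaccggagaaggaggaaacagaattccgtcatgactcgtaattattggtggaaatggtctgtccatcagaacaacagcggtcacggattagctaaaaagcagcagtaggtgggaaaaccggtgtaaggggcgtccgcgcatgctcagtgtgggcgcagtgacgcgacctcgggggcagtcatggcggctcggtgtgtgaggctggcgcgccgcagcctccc
Lonp1: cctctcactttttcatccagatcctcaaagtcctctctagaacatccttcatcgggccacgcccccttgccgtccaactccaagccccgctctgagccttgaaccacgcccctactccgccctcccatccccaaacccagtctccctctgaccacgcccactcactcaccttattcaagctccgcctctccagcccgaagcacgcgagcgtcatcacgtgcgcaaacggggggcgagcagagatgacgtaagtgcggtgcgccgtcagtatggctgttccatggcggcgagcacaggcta
Tomm34: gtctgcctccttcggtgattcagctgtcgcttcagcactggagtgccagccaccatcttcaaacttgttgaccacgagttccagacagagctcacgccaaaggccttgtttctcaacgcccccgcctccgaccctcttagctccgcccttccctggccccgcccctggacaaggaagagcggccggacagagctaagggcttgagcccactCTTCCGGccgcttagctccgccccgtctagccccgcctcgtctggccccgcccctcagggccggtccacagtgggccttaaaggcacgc
The Hspe1 window held 2 ETS matches that overlap each other and begin 80 and 77 bases before the start. A heat shock match begins 84 bases before the start and overlaps both of them, and an ERR match begins 48 bases before the start. Of the 2 Hspd1 windows in the RefSeq table, one runs over 285 of the same 300 bases on the opposite strand. The Grpel1 window held 1 ETS match, 204 bases before the start, and the Tomm34 window held 1, 39 bases before the start. The Lonp1 window held no match to any motif searched.

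With 1 window counted for each of the 30 genes, the first that the RefSeq table lists, the ETS motif was found in 12 (40%), among them Timm8b, Timm10, Timm10b, Timm23, Tomm22, Tomm70a and Clpp. It was found in 9.12% of all 27025 promoter windows of the same length and in 17.7% of those of the genes tested here. The 30 genes include Tomm6, Tomm20l and Timm8a2, which failed the filter on low counts. Of these, Timm8a2 is among the 12 with the ETS motif. The ERR motif was found in 4 windows (13.3%), those of Hspe1, Timm8b, Timm23 and Timm44, against 4.66% of all windows and 3.13% of those of tested genes. The NRF1 motif (GCGC, any base, T and GCGC again) was found in 4 windows (13.3%), those of Hspd1, Pam16, Timm8b and Tomm20, against 4.78% of all windows and 10.2% of those of tested genes. The heat shock motif was found in 2 windows (6.67%), those of Hspe1 and Timm9, against 7.95% and 5.60%. The YY1 motif AAGATGGC was found in 1 window (3.33%), that of Timm50, against 2.88% and 4.61%. The C/EBP-ATF motif TGATGNAA was in none of the 30 windows, against 4.06% of all windows and 2.23% of those of tested genes. Both strands were searched for every motif. Of the 3 genes with 2 windows (Hspd1, Timm22 and Tomm34), the other Hspd1 window is the one that overlaps that of Hspe1. With every window searched, Hspd1 joined the ETS, ERR and heat shock genes through bases it shares with Hspe1. The ETS motif was then in 13 of 30 genes, against 9.93% of all genes and 19.2% of tested genes. The ERR motif was in 5 of 30, against 5.38% and 4.00%, and the heat shock motif in 3 of 30, against 9.04% and 6.97%. A match describes the letters of the window and is not a binding site. Whether matches go with the changes of the genes was not tested.

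Library totals ran from 26387408 to 31474490 counts. The 7 adipocyte markers summed to 358 to 440.4 CPM, the counts scaled to a common library size of 1e+06 with TMM factors, at day 0, 22189 to 39906 at day 4 and 29322 to 31013 at day 8. The 5 thermogenic markers summed to at most 0.135 CPM at day 0, to 183 to 550 CPM at day 4 and to 1064 to 1728 CPM at day 8. At day 4 the thermogenic sum was led by Elovl3, at a mean of 337 CPM. Means of the others were then 25.5 CPM for Cox8b, 6.71 for Ucp1, 6.61 for Cidea and 0.326 for Dio2. At day 8 Cidea was at 575 CPM, Elovl3 at 531, Ucp1 at 156, Cox8b at 125 and Dio2 at 0.523 CPM. The 6 precursor markers summed to 1315 to 1426 CPM at day 0, 654 to 1622 at day 4 and 429 to 552 CPM at day 8. This sum was led by Pdgfrb at day 0 and by Ly6a on the later days, and 3 of the 5 tested precursor markers (Cd34, Dlk1 and Ly6a) were called higher at day 4 than at day 0, against 2 (Pdgfra and Pdgfrb) called lower. At day 8 the same 2 were lower than at day 0 and the other 3 were not called. Over all libraries, marker sums for other cell types were 5.55 to 16.7 CPM for 4 macrophage genes, 0.334 to 2.46 CPM for 4 endothelial genes and 0.551 to 2.28 CPM for 3 Schwann cell genes. The 4 mural genes summed to 23.9 to 33.9 CPM at day 0, 25.1 to 35.6 at day 4 and 37.5 to 44.3 CPM at day 8. The 4 mesothelial genes summed to 16.1 to 21.6 CPM at day 0, 19.2 to 43.6 at day 4 and 30.1 to 50.6 CPM at day 8. At day 8 against day 0 the mural gene Cspg4 was 3.73-fold higher (adjusted p = 0.00011), the mural gene Myh11 was 4.49-fold lower (adjusted p = 0.00036) and the mesothelial gene Krt19 was higher by 1.07 on the log2 scale (adjusted p = 0.0107). The part of these cell types in the results was not tested. These are bulk libraries, so more cells that express a gene and more RNA of it per cell cannot be told apart.

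Nearly the whole import set rose in the first 4 days. At an adjusted p below 0.05 in edgeR's quasi-likelihood test with Benjamini-Hochberg adjustment over 14649 genes, 30 of the 32 tested members were higher at day 4 than at day 0, 1 was lower (Tomm34) and 1 was not called (Tomm6os). Over all genes tested, 54.6% were called in this comparison, 28.6% as higher and 26% as lower. The median log2 fold change of the 32 members was 1.50, against -0.01 over all genes tested, and 22 members were at least 2-fold higher. At day 8, 30 of 32 were higher than at day 0 and the other 2, Tomm34 and Tomm6os, were not called, against 63.4% of all genes called, 33.5% higher and 29.9% lower. The median log2 fold change was then 1.74, against 0.03 over all genes tested, and 25 members were at least 2-fold higher. The same 9 libraries entered both comparisons and the day 0 libraries are shared between them.

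The values of the 3 libraries of a day seldom overlapped with those of day 0. All 3 day 4 libraries lay above all 3 day 0 libraries for 30 of the 32 tested members, against 32.8% of all genes, and all 3 lay below for 1, against 33% of all genes. All 3 day 8 libraries lay above all 3 day 0 libraries for 30 members, against 37.4% of all genes, and below for 1, against 35.3%. With total counts in place of TMM scaling, the median over all genes shifted to -0.34 at day 4 and -0.33 at day 8 against day 0. On that scale 35.3% of the genes called at day 4 were higher, against 52.4% with TMM, and 37.5% at day 8, against 52.9%. On that scale too, 27 of 32 members were higher and 1 lower at day 4, against 3073 and 5631 of all 14649 genes tested. At day 8, 27 members were higher and 2 lower, against 3632 and 6044 of all genes.

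**Figure D1:**
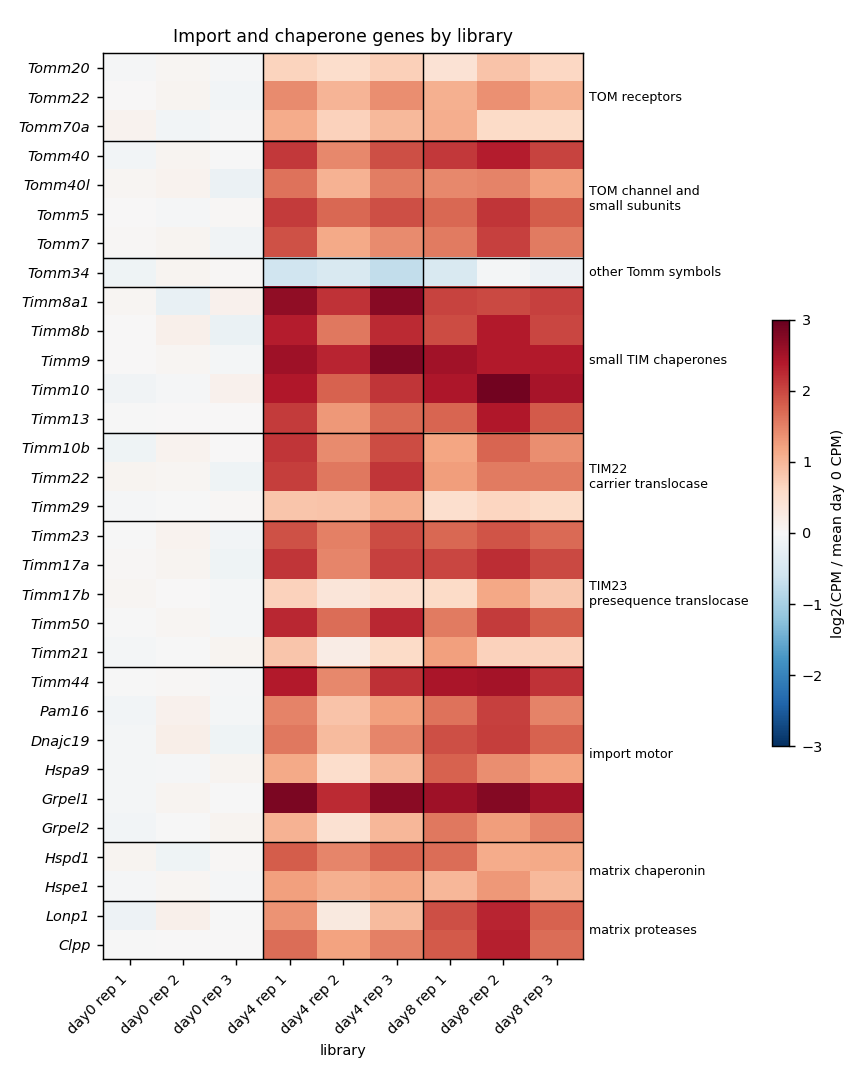
Heat map of 31 tested import and chaperone genes (rows, grouped by role; Tomm6os is not drawn) in the 9 libraries (columns, day 0, 4 and 8), coloured by log2 of CPM over the gene's mean CPM at day 0. The columns of days 4 and 8 are red for all genes but Tomm34, and day 4 replicate 2 is paler than the other libraries of its day.

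The receptors of the TOM complex rose, with smaller log2 fold changes at day 4 than its pore and small subunits; the difference itself was not tested. Tomm20, a receptor for presequences, was at 171, 185 and 173 CPM in the day 0 libraries, 281, 253 and 289 CPM at day 4 and 237, 320.2 and 269 CPM at day 8. Its log2 fold change was 0.64 at day 4 (SE 0.14, adjusted p = 0.00334), the smallest of the 3 receptors. Tomm22, the receptor that also organises the complex, was at 84.4, 89.1 and 79.2 CPM at day 0, 226, 172 and 221 at day 4 and 176, 219 and 176 CPM at day 8. Its log2 fold change at day 4 was 1.29 (SE 0.15, adjusted p = 5.17e-05). Tomm70a, which receives precursors bound to cytosolic chaperones, was at 64.4, 56.7 and 57.9 CPM at day 0, 129.8, 96.8 and 117 at day 4 and 128, 88.3 and 88.3 CPM at day 8. For all 3 receptors, every library of days 4 and 8 lay above every library of day 0. With total counts in place of TMM, Tomm20 lost its call at day 4 (log2 fold change 0.31, adjusted p = 0.0560) and at day 8 (0.28, adjusted p = 0.0749). Tomm70a then lost its call at day 8 (0.41, adjusted p = 0.0557).

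The 4 tested genes of the TOM pore and its small subunits had log2 fold changes of 1.42 to 1.92 at day 4 and 1.39 to 2.18 at day 8, and all 4 were called in both comparisons. Tomm40, the channel protein, was at 49.4 to 55.0 CPM at day 0, 142 to 227 at day 4 and 212 to 269 CPM at day 8. It was 4.53-fold higher at day 8 than at day 0. Its paralog Tomm40l was lower throughout, at 7.37 to 9.03 CPM at day 0, 17.3 to 25.7 at day 4 and 19.6 to 23.5 CPM at day 8. Both genes were raised in all libraries of days 4 and 8 without overlap with day 0. In the GENCODE M21 annotation Tomm40l shares 3304 of its 5135 exon bases with Nr1i3 on the opposite strand, which had 0 counts in every library here. Tomm5, a small subunit, was at 38.8 to 40.4 CPM at day 0, 132 to 169 at day 4 and 130.5 to 175 CPM at day 8. Tomm7, another small subunit known to govern how stably the complex is held together, was at 48.4 to 55.1 CPM at day 0, 115 to 196 at day 4 and 153 to 216 CPM at day 8.

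The small TIM chaperones had the largest changes of any role, with a median log2 fold change of 2.13 both at day 4 and at day 8, and all 5 tested members rose. Timm9, which forms a ring with Timm10 that carries metabolite carrier precursors, was at 10.7, 11.1 and 10.2 CPM at day 0, 62.3, 52.3 and 73.3 at day 4 and 61.1, 55.5 and 55.2 CPM at day 8. The log2 fold change of Timm9 was 2.56 at day 4 (SE 0.15, adjusted p = 4.69e-07). Timm10 was at 13.2, 13.7 and 15.5 CPM at day 0, 74.3, 48.2 and 62.9 at day 4 and 75.6, 105 and 79.1 CPM at day 8. Its log2 fold change of 2.62 at day 8 (SE 0.19, adjusted p = 2.28e-06) was the second largest of the set. The 3 values of day 8 for Timm10 all lay above those of day 4, whereas those of Timm9 overlapped.

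Timm8a1, which pairs with Timm13 and escorts the precursor of Timm23 among others, was at 6.90, 5.70 and 7.31 CPM at day 0, 41.9, 29.7 and 44.3 at day 4 and 27.1, 26.1 and 27.3 CPM at day 8. It was thus highest at day 4, with all 3 libraries above those of both other days. Its partner Timm13 was at 60.9, 62.5 and 61.9 CPM at day 0, 263, 152 and 204 at day 4 and 209, 324 and 219.6 CPM at day 8. Timm8b, the close relative of Timm8a1, was at 42.4, 46.4 and 36.4 CPM at day 0, 215, 125 and 198 at day 4 and 162, 217 and 169 CPM at day 8. The last pair overlapped between days 4 and 8 and stood clear of day 0. The remaining small TIM gene, Timm8a2, had 1 count in a single day 4 library and 0 counts in the other 8, where a count of 0 allows up to 0.0809 to 0.125 CPM over the 9 libraries.

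In the TIM22 complex, which inserts carriers into the inner membrane, all 3 genes rose in both comparisons and all 3 were highest on average at day 4. Timm22, the pore, was at 41.1, 40.5 and 35.5 CPM at day 0, 164, 117 and 174 at day 4 and 93.6, 114 and 115 CPM at day 8. Timm29, a subunit that is known from human cells to tie the complex to TOM, was at 51.2, 51.9 and 54.0 CPM at day 0, 93.2, 94.2 and 112 at day 4 and 73.7, 82.4 and 77.7 CPM at day 8. Timm10b, the small TIM bound to the complex, was at 7.71, 8.97 and 8.43 CPM at day 0, 37.1, 22.5 and 32.3 at day 4 and 18.9, 28.2 and 22.0 CPM at day 8. For Timm22 and Timm29 every day 8 library lay below every day 4 library, while for Timm10b the 2 days overlapped. The difference between days 8 and 4 did not pass the test for Timm22 (log2 fold change -0.49, SE 0.17, adjusted p = 0.0553), Timm29 (-0.36, SE 0.12, adjusted p = 0.0537) or Timm10b (-0.41, SE 0.21, adjusted p = 0.169). Timm10b shares 376 of its 3582 exon bases with Gm45799 on the same strand in GENCODE M21, and with total counts in place of TMM Timm29 lost its call at day 8 against day 0 (0.21, adjusted p = 0.146).

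The TIM23 complex is the gate for precursors with a presequence, and its 5 genes rose in both comparisons, though by very different amounts. Timm23, the channel subunit, was at 73.1, 79.2 and 69.2 CPM at day 0, 278, 209 and 285 at day 4 and 243, 272 and 239 CPM at day 8. Timm50, the receptor on the intermembrane space side, was at 37.6, 39.3 and 36.3 CPM at day 0, 181, 121 and 181 at day 4 and 111, 162 and 133 CPM at day 8. Both were more than 3-fold higher at day 4 and at day 8 than at day 0, with no overlap.

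The paralogs Timm17a and Timm17b, alternative partners of Timm23 in the channel, parted. Timm17a was at 59.9, 62.1 and 53.2 CPM at day 0, 259, 161 and 243 at day 4 and 234, 273 and 229 CPM at day 8. This was a log2 fold change of 1.92 at day 4 (SE 0.19, adjusted p = 1.35e-05). Timm17b was at 37.2, 36.1 and 34.5 CPM at day 0, 57.8, 46.4 and 51.0 at day 4 and 53.8, 80.2 and 62.8 CPM at day 8. Its log2 fold change of 0.52 at day 4 (SE 0.16, adjusted p = 0.0164) was the smallest of the genes that rose. Timm21, which links the channel to TOM and to respiratory chain assembly, was at 14.2, 14.6 and 15.8 CPM at day 0, 26.6, 17.4 and 22.2 at day 4 and 34.7, 24.0 and 23.9 CPM at day 8. It rose at day 4 by a log2 fold change of 0.57 (SE 0.20, adjusted p = 0.0307). The libraries of days 4 and 8 lay above those of day 0 for all 3 genes, but by narrow gaps for Timm21. The day 4 call of Timm17b was lost without day 0 replicate 3 (adjusted p = 0.0590) or day 4 replicate 1 (0.0539). That of Timm21 was lost without any of the 3 day 0 libraries, day 4 replicate 1 or day 4 replicate 3 (0.0668 to 0.114). Both calls were also lost with total counts, at log2 fold changes of 0.19 (adjusted p = 0.245) for Timm17b and 0.23 (adjusted p = 0.311) for Timm21.

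All 6 genes of the import motor rose, with log2 fold changes of 0.85 to 2.62 at day 4 and 1.45 to 2.60 at day 8. Grpel1, the main nucleotide exchange factor of the motor chaperone, was at 55.7, 60.6 and 56.8 CPM at day 0, 412, 274 and 377 at day 4 and 335, 386 and 331 CPM at day 8. That was a 6.14-fold rise at day 4, a log2 fold change of 2.62 (SE 0.17, adjusted p = 1.06e-06) and the largest of all 32 tested members. Its paralog Grpel2 was at 15.0, 15.7 and 16.7 CPM at day 0, 32.6, 21.5 and 31.4 at day 4 and 47.6, 37.8 and 44.0 CPM at day 8. It rose 1.80-fold at day 4. The values of Grpel1 at days 4 and 8 overlapped, whereas for Grpel2 all libraries of each day lay above those of the day before. In GENCODE M21 Grpel1 shares 411 of its 3528 exon bases with Tada2b on the opposite strand, where its counts are uncertain.

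Hspa9, the matrix chaperone of the motor, also called mortalin, was at 382, 388 and 424 CPM at day 0, 882, 572 and 778 at day 4 and 1354, 1044 and 924 CPM at day 8. Timm44, which tethers Hspa9 to the channel, was at 26.8, 27.5 and 26.4 CPM at day 0, 141, 73.3 and 122 at day 4 and 147, 151 and 121 CPM at day 8. Its rise at day 8 was 5.18-fold. Both stood clear of day 0 on both later days. Of the J-protein pair that regulates the chaperone's cycle, Pam16 was at 19.9, 22.7 and 20.1 CPM at day 0, 58.9, 37.6 and 48.7 at day 4 and 65.1, 86.9 and 59.0 CPM at day 8. Dnajc19, the other of that pair, was at 18.6, 21.7 and 17.7 CPM at day 0, 58.2, 37.5 and 53.6 at day 4 and 73.7, 81.6 and 65.7 CPM at day 8. For Hspa9, Pam16, Dnajc19 and Grpel2 all 3 day 8 libraries lay above all 3 day 4 libraries. On the opposite strand in GENCODE M21, Pam16 shares 455 of its 2435 exon bases with Glis2, and Dnajc19 shares 178 of 4027 with Fxr1. Counts there are uncertain.

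The chaperonin of the matrix is built of Hspd1, which forms the folding chamber, and Hspe1, its lid. Hspd1 was at 143, 123 and 139 CPM at day 0, 475, 373 and 453 at day 4 and 432, 289.9 and 296 CPM at day 8. It was 3.22-fold higher at day 4 than at day 0 (log2 fold change 1.69, SE 0.19, adjusted p = 3.32e-05). Hspe1 was at 170.2, 180.0 and 171 CPM at day 0, 407, 361 and 386 at day 4 and 348, 424 and 341 CPM at day 8. The rise at day 4 was 2.21-fold (log2 fold change 1.15, SE 0.14, adjusted p = 5.61e-05). Both were raised in every library of days 4 and 8. The exons of the pair share 112 bases on opposite strands in GENCODE M21, where the counts of the 2 genes are uncertain.

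The 2 matrix proteases both rose, and only Lonp1 was called again between days 4 and 8. Lonp1, the Lon protease, was at 151, 186 and 167 CPM at day 0, 425, 205 and 326 at day 4 and 645, 814 and 576 CPM at day 8. It rose 1.90-fold at day 4 against day 0 (log2 fold change 0.92, SE 0.24, adjusted p = 0.00862). It rose again 2.13-fold at day 8 against day 4 (log2 fold change 1.09, SE 0.25, adjusted p = 0.0119). The 3 days did not overlap. Clpp, the peptidase of the Clp protease, was at 46.5, 47.2 and 47.8 CPM at day 0, 151, 109 and 134 at day 4 and 169, 236 and 151 CPM at day 8. Its log2 fold change was 1.48 at day 4 (SE 0.18, adjusted p = 7.91e-05), and the values of days 4 and 8 overlapped. At day 8 against day 4 that of Clpp was 0.50 (SE 0.18, adjusted p = 0.0714). It was called there without day 4 replicate 1 or day 8 replicate 3 (adjusted p 0.0427 to 0.0483). At day 8 against day 0 the log2 fold changes were 2.01 for Lonp1 and 1.97 for Clpp.

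**Figure D2:**
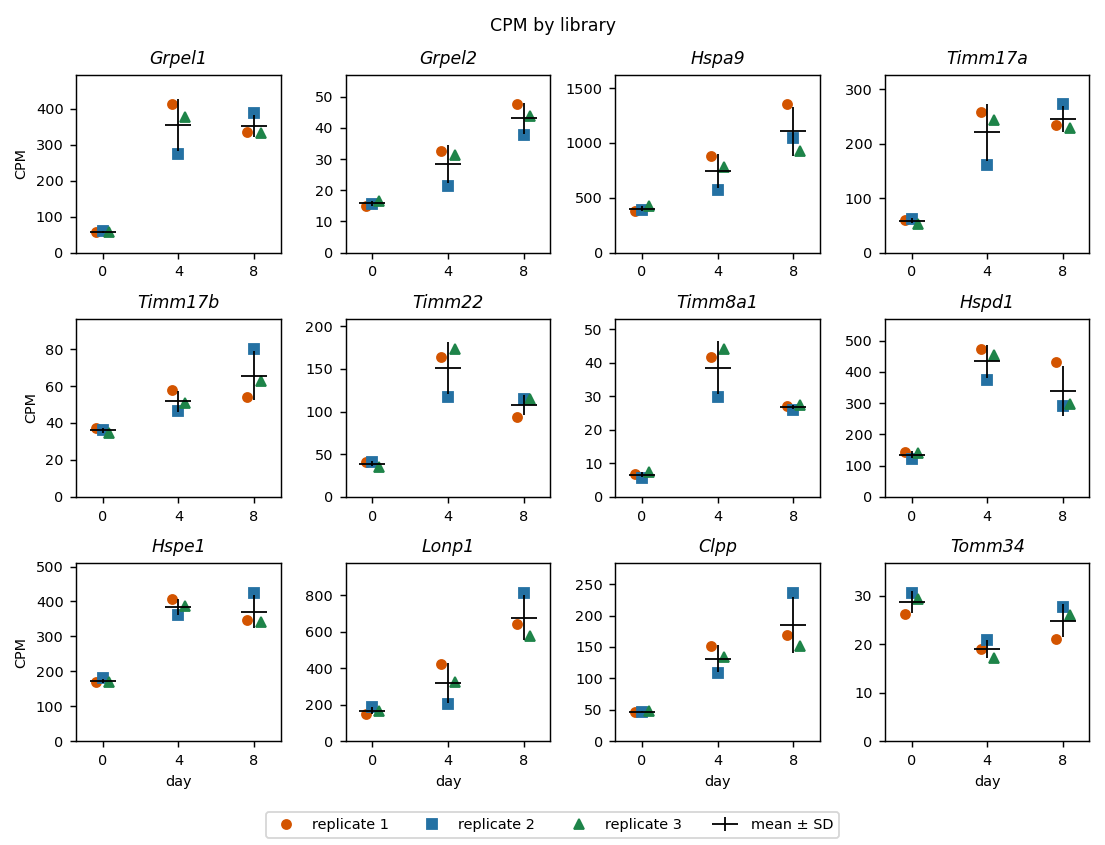
CPM (y axis, linear from 0, scaled for each gene) of 12 import and chaperone genes against day (x axis), with a symbol for each replicate number and a bar for the mean ± SD of 3 libraries. Grpel1 and Hspd1 are at or near their highest at day 4, Lonp1 and Grpel2 climb at each step, and Tomm34 is lowest at day 4.

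Tomm34 was the 1 member that fell at day 4 against day 0. It encodes a co-chaperone of the cytosol that binds precursors and chaperones before import. It was at 26.3, 30.5 and 29.2 CPM at day 0, 19.0, 20.9 and 17.2 at day 4 and 21.0, 27.6 and 25.9 CPM at day 8. All day 4 libraries lay below all day 0 libraries, a log2 fold change of -0.59 (SE 0.15, adjusted p = 0.00637), and day 8 overlapped with day 0 (-0.21, SE 0.15, adjusted p = 0.239). With total counts in place of TMM, Tomm34 was called lower at day 8 too (-0.57, adjusted p = 0.00726).

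The other members were at or near the detection limit. Tomm6os, an antisense transcript at the Tomm6 locus, had 6, 11 and 4 counts at day 0, 11, 7 and 11 counts at day 4 and 2, 2 and 0 counts at day 8. It was called lower at day 8 than at day 4 (log2 fold change -2.88, SE 0.81, adjusted p = 0.0290). Tomm6, a small TOM subunit, had 2 counts in 1 day 0 library, 3 counts in 1 day 4 library and 0 counts in the other 7. In GENCODE M21 Tomm6 shares 859 of its 1131 exon bases with Gm21981 on the same strand and 219 with Tomm6os on the opposite strand. Gm21981 had 0 counts in every library, so the level of Tomm6 RNA cannot be read from these counts. Tomm20l, a relative of Tomm20, had 0 counts in all 9 libraries.

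Between days 4 and 8 the set as a whole moved little. The test called 3 members higher at day 8 (Lonp1, Dnajc19 and Grpel2) and 2 lower (Timm8a1 and Tomm6os), against 22.4% of all genes called, 11.7% higher and 10.8% lower. The median log2 fold change was 0.02 over the 32 members and 0.00282 over all genes tested. All 3 day 8 libraries lay above all 3 day 4 libraries for 7 members, against 19.9% of all genes, and below for 4, against 17.1%. Dnajc19 was 1.48-fold higher (log2 fold change 0.57, SE 0.17, adjusted p = 0.0407). Grpel2 was 1.51-fold higher (0.60, SE 0.17, adjusted p = 0.0312) and Timm8a1 was 1.44-fold lower (-0.52, SE 0.17, adjusted p = 0.0481). The call of Lonp1 held when any 1 of the 9 libraries was left out. That of Timm8a1 held without day 4 replicate 2 and was lost without any 1 of the other 8 (adjusted p 0.0603 to 0.164). That of Dnajc19 held without day 4 replicate 1 and was lost without any 1 of the other 8 (0.0508 to 0.118). That of Grpel2 held without day 4 replicate 1 or day 8 replicate 2 and was lost without any 1 of the other 7 (0.0571 to 0.0932). That of Tomm6os was lost without day 4 replicate 1 or 3 or any 1 of the 3 day 8 libraries (0.0533 to 0.0794). The number of members called ran from 1, without day 4 replicate 3, to 8, without day 4 replicate 1, of which 7 were higher and 1 was lower. Over all genes, 1894 of 15144 were called in the former case. In the latter, 2049 of 15167 genes were higher and 2136 lower. With no filter on low counts all 5 members called were higher, against 1770 higher and 1719 lower of 24688 genes. The calls of Timm8a1 (adjusted p = 0.0602) and Tomm6os (0.0530) were then lost, and other members gained a call. The call of Dnajc19 was also lost with RLE scaling (adjusted p = 0.0536) and with the replicate number as a block (0.0668).

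**Figure D3:**
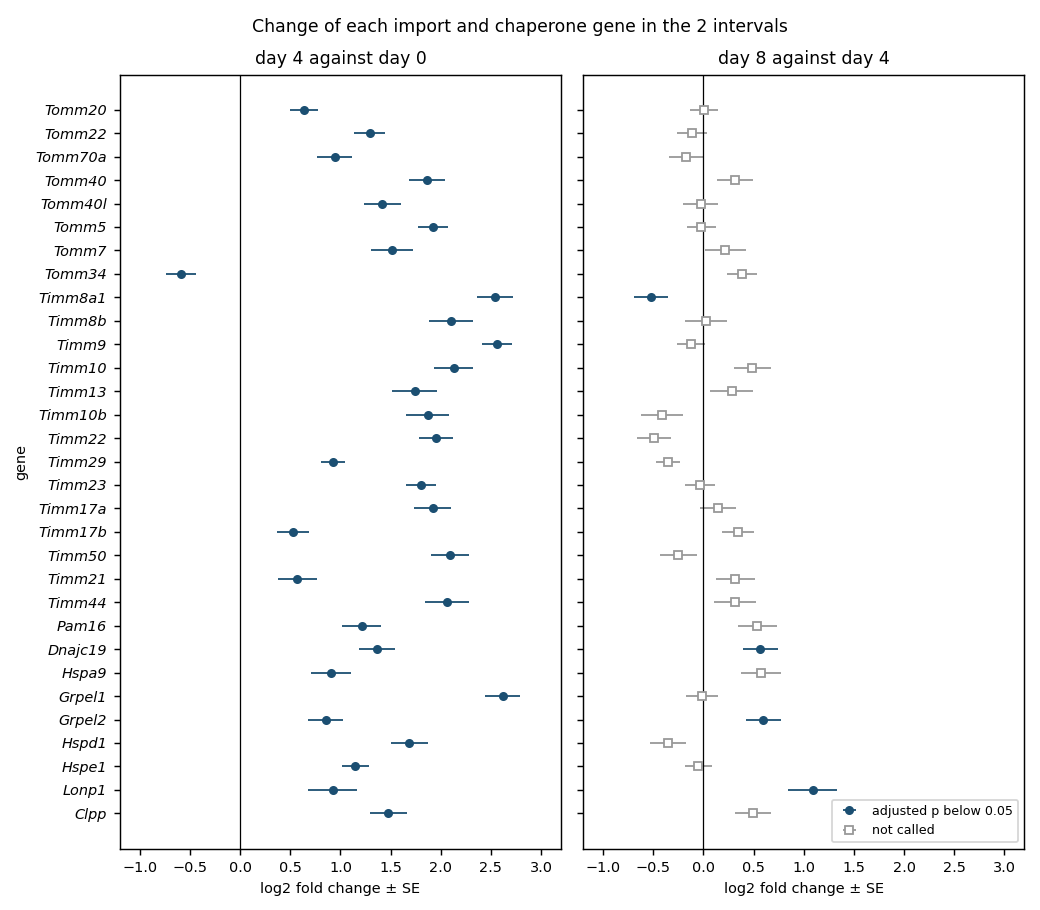
Log2 fold change ± SE (x axis) of each of 31 tested import and chaperone genes (y axis) at day 4 against day 0 (left panel) and at day 8 against day 4 (right panel), with filled circles for genes past an adjusted p of 0.05. In the left panel all genes but Tomm34 lie right of 0, and in the right panel 4 are called, with Lonp1 farthest right at 1.09.

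Ratios of 2 genes within a library do not depend on the scaling, and 13 of 14 listed pairs of paralogs or partners had both genes past the filter. The size of a ratio at one day also reflects transcript length, so the change over days is what is compared. Each was tested over days 0, 4 and 8 by an exact permutation test of the F statistic over all 1680 assignments of the libraries, for which the smallest p possible is 0.00357. With Benjamini-Hochberg adjustment over the 13 pairs, 9 pairs passed. The ratio of Grpel1 to Grpel2 counts was 3.40 to 3.87 in the day 0 libraries and 7.03 to 10.2 in those of day 8, with geometric means of 3.65, 12.4 and 8.15 at days 0, 4 and 8 (adjusted p = 0.0116). All day 4 libraries lay above those of day 8, and all of day 8 above those of day 0. The ratio of Timm17a to Timm17b was 1.61, 1.72 and 1.54 at day 0, 4.48, 3.48 and 4.76 at day 4 and 4.34, 3.40 and 3.65 at day 8 (adjusted p = 0.0265). Days 4 and 8 overlapped and both lay above day 0. The ratio of Timm10 to Timm10b was 1.71, 1.53 and 1.84 at day 0, 2.00, 2.14 and 1.95 at day 4 and 4.00, 3.74 and 3.59 at day 8 (adjusted p = 0.0116). Its larger step came after day 4. The ratio of Tomm40 to Tomm40l had a geometric mean of 6.24 at day 0, 8.44 at day 4 and 10.7 at day 8 (adjusted p = 0.0116).

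Partners in a complex shifted against each other as well. Hspa9 counts were 6.86, 6.40 and 7.45 times those of Grpel1 at day 0, 2.14, 2.09 and 2.07 times at day 4 and 4.04, 2.70 and 2.79 times at day 8 (adjusted p = 0.0116). The counts of the exchange factor lay closer to those of its chaperone on both later days. The ratio of Tomm20 to Tomm22 was 2.03 to 2.19 at day 0, 1.25 to 1.47 at day 4 and 1.34 to 1.53 at day 8 (adjusted p = 0.0232). The ratio of Dnajc19 to its paralog Dnajc15 was 1.29 to 1.49 at day 0, 0.376 to 0.429 at day 4 and 0.354 to 0.383 at day 8 (adjusted p = 0.0232). Dnajc15 rose to 127 ± 35.4 CPM at day 4, against 14.1 ± 0.618 CPM at day 0 (SD, n = 3 each). The ratio of Timm8a1 to Timm13 had a geometric mean of 0.107 at day 0, 0.189 at day 4 and 0.109 at day 8 (adjusted p = 0.0464). That of Lonp1 to Clpp was 3.55, 2.34 and 3.69 on those days (adjusted p = 0.0406). With 1 library left out, the first of these was lost in 8 of 9 cases, all but day 8 replicate 2 (adjusted p 0.0506 to 0.113). The second was lost without day 0 replicate 1 or 3 or day 8 replicate 1 or 3 (0.0650 to 0.0980).

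The other 4 pairs did not pass. Hspd1 to Hspe1 was 0.838, 0.682 and 0.815 at day 0, 1.17, 1.03 and 1.17 at day 4 and 1.24, 0.683 and 0.867 at day 8 (adjusted p = 0.201). The libraries of day 8 were spread over nearly the range of both other days. Timm9 to Timm10 had geometric means of 0.754, 1.02 and 0.667 at days 0, 4 and 8 (adjusted p = 0.0557), and Timm8a1 to Timm8b of 0.159, 0.218 and 0.148 (adjusted p = 0.173). Tomm70a to Tomm20 was 0.338, 0.416 and 0.365 (adjusted p = 0.518).

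**Figure D4:**
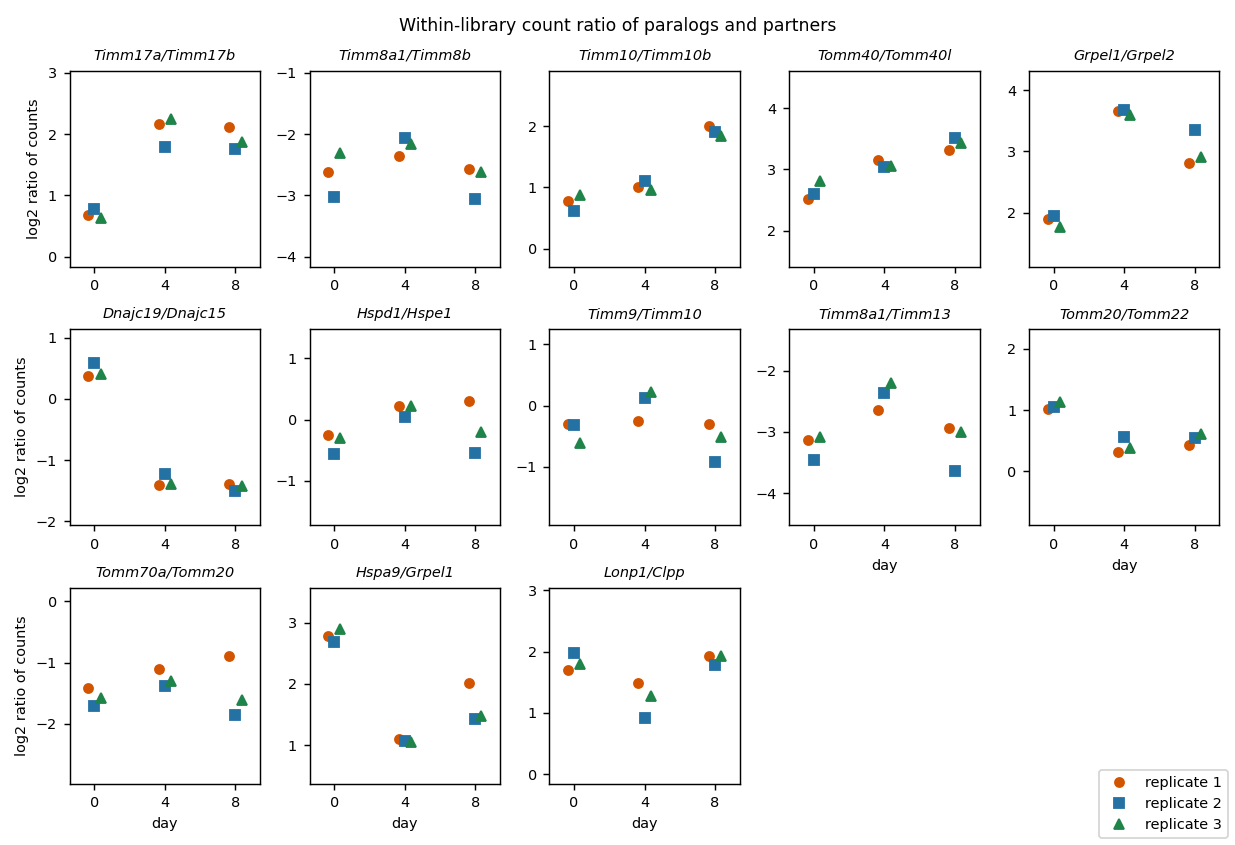
Log2 ratio of the counts of 2 genes in the same library (y axis, the same span in each panel) against day (x axis) for 13 pairs, with a symbol for each replicate number. Grpel1/Grpel2 and Timm17a/Timm17b step up at day 4, Timm10/Timm10b steps up at day 8, and Hspa9/Grpel1 and Dnajc19/Dnajc15 step down at day 4.

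Levels were compared between genes as CPM per kilobase of exon, with exon lengths from GENCODE M21. These lengths join the exons of all annotated transcripts of a gene, from 518 bases for Timm8b to 9777 for Tomm70a. They can exceed the length of the RNA present, so the order also depends on the annotation. At day 0 the highest of the tested members were Hspe1 at 118 ± 3.75, Hspa9 at 92.3 ± 5.21 and Timm8b at 80.6 ± 9.73 CPM per kilobase (SD, n = 3 each), and Hspd1 and Tomm22 followed at 51.0 each. At day 8 the order was led by Timm8b at 352 ± 58.4, Hspa9 at 257 ± 51.5 and Hspe1 at 252 ± 31.3 CPM per kilobase, the last 2 being within 1 SD of each other. The lowest at day 8, leaving out Tomm6os, were Tomm40l at 4.27 ± 0.399, Grpel2 at 6.39 ± 0.732 and Timm10b at 6.43 ± 1.32 CPM per kilobase, the last 2 again within 1 SD of each other. The length of Tomm40l includes the bases it shares with Nr1i3, so its place in this order is uncertain. Grpel1, which ranked 15 of 32 at day 0 with 16.4 ± 0.738 CPM per kilobase, ranked 13 at day 8 with 99.5 ± 8.74.

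Within day 4, the libraries stood in a like order for most of the set. Day 4 replicate 2 was the lowest of its day for 30 of the 32 tested members, and day 4 replicate 1 the highest for 24. How often this held over all genes was not counted, so the order cannot be called particular to the set. The summed CPM of the 31 members other than Tomm6os was 1983, 2064 and 2012 at day 0, 6068, 4207 and 5552 at day 4 and 6108, 6653 and 5446 at day 8. Adipocyte markers moved with it, at 39906, 22189 and 35855 CPM in the day 4 libraries. So did the sum of thermogenic markers, led by Elovl3 at day 4, at 550, 183 and 397 CPM. Precursor markers were at 654, 1622 and 705 CPM, highest in day 4 replicate 2. Their part in the differences between the days was not tested. Without day 4 replicate 2, 30 members were higher and 1 lower at day 4 than at day 0. Of the 15150 genes tested then, 4560 were higher and 4550 lower. At day 8 against day 4, 1 member was then higher and 6 were lower, against 1644 and 1747 of all genes. In either direction, 7 of 32 members and 3391 of 15150 genes were called there, which are like shares.

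Other genes that act beside the import machinery rose in the same interval. A list of 46 such genes covered outer membrane sorting, presequence removal, intermembrane space folding, inner membrane insertion, cristae junctions, other matrix chaperones and inner membrane proteases. Of these, 40 were higher and 1 was lower at day 4 than at day 0, with a median log2 fold change of 1.48. At day 8 against day 0 the numbers were 41 higher and 1 lower, with a median of 1.79, and at day 8 against day 4 they were 9 higher and 3 lower. Of all genes, 28.6% were higher and 26% lower at day 4 than at day 0, and 33.5% and 29.9% at day 8. Between days 8 and 4, 11.7% were higher and 10.8% lower. The 22.4% called in either direction was a share like that of this list. Dnajc15, the J-protein paralog of Dnajc19, had a log2 fold change of 3.18 at day 4 (SE 0.22, adjusted p = 1.24e-06), above that of any import member. Chchd4, the oxidoreductase that folds small TIM proteins after import, had one of 2.50 (SE 0.14). Samm50, the core of the outer membrane sorting complex, had 2.06 (SE 0.20), and Clpx, the unfoldase that feeds Clpp, had 2.07 (SE 0.27). The 7 MICOS genes, which shape cristae junctions, all rose, led by Apoo at 2.92 (SE 0.23). The lower gene was Mtch1, a relative of the outer membrane insertase Mtch2. It was at 269.5 ± 59.0 CPM at day 4, against 571 ± 37.1 CPM at day 0 (SD, n = 3 each; log2 fold change -1.08, SE 0.20, adjusted p = 0.000999).

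Of 10 cytosolic chaperones that deliver precursors, 1 was lower at day 4 than at day 0, against 26% of all genes, and the other 9 were not called. At day 8, 1 was higher and 4 were lower than at day 0, against 33.5% and 29.9% of all genes, so the share that was lower was near that of all genes. Dnaja1, a J-protein co-chaperone, was lower at day 8 by 1.28 on the log2 scale (SE 0.14, adjusted p = 2.25e-05), as was Hsph1, an exchange factor, by 1.15 (SE 0.16, adjusted p = 0.00011). Hspa8, the constitutive cytosolic chaperone that hands precursors to Tomm70a, was at 802 ± 102 CPM at day 8 and 1598 ± 139 CPM at day 4 (SD, n = 3 each), which was lower by 0.99 on the log2 scale (SE 0.16, adjusted p = 0.00254).

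**Figure D5:**
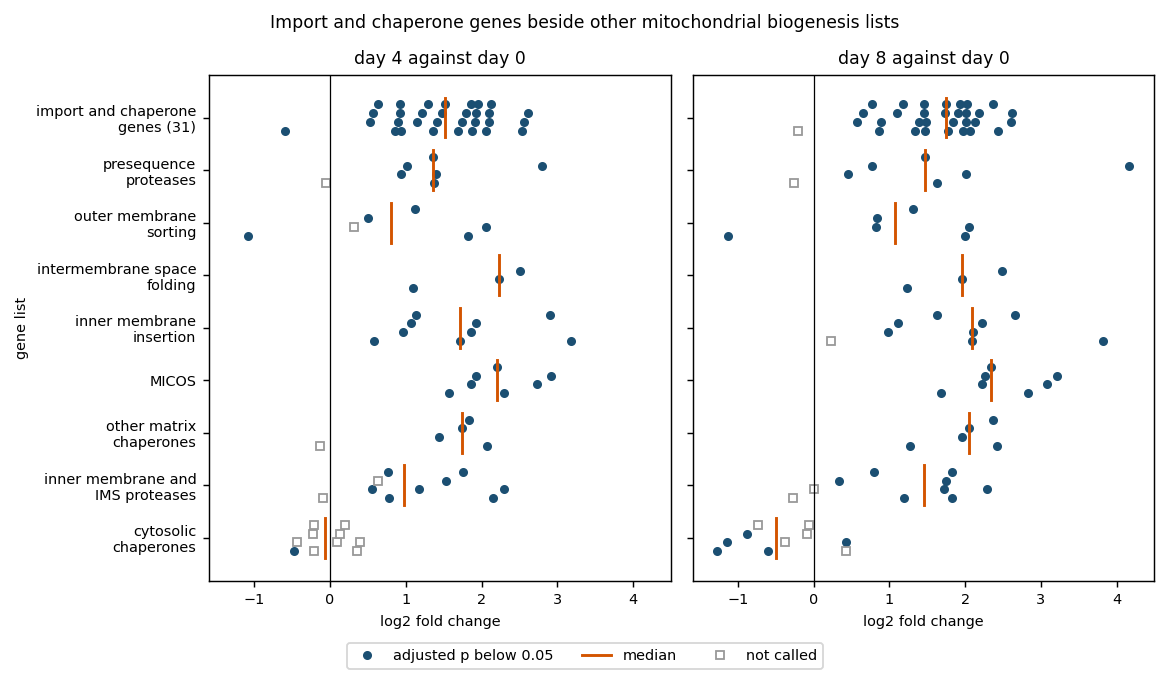
Log2 fold change (x axis) of single genes (points) at day 4 (left) and day 8 (right) against day 0, for 31 import and chaperone genes and for 8 further lists (rows; IMS is the intermembrane space), with filled circles past an adjusted p of 0.05 and a line at the median of each list. The median of the import set lies at 1.52 at day 4 and 1.75 at day 8, and the cytosolic chaperones centre near or below 0.

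Of 13 regulators known to act on mitochondrial biogenesis or stress, 7 were higher and 1 lower at day 4 than at day 0, and 4 were higher at day 8 than at day 4. Counted in either direction, the shares called were near those of all genes, 54.6% and 22.4% in those comparisons. By direction, 28.6% of all genes were higher and 26% lower at day 4, and 11.7% were higher at day 8 than at day 4. At day 8 against day 0, 9 of the 13 were higher and 0 lower, against 33.5% and 29.9% of all genes. Ppargc1b, a coactivator of mitochondrial genes, was at 0.403 ± 0.160 CPM at day 0, 19.6 ± 4.56 at day 4 and 25.9 ± 1.96 at day 8 (SD, n = 3 each). Ppargc1a, its relative, was at 0.154 ± 0.0499, 5.31 ± 2.03 and 11.9 ± 4.46 CPM on those days (SD, n = 3 each). Esrra, an estrogen-related receptor, was at 31.8 ± 0.850, 195 ± 50.6 and 197 ± 31.4 CPM on those days, with a log2 fold change of 2.62 at day 4 (SE 0.21, adjusted p = 3.40e-06). Tfam, which packages and transcribes mitochondrial DNA, rose at day 4 with a log2 fold change of 0.81 (SE 0.20, adjusted p = 0.00638). So did Dele1, which relays mitochondrial stress, with 1.39 (SE 0.16, adjusted p = 3.97e-05). Cebpb rose with 0.66 (SE 0.18, adjusted p = 0.0109) and Eif2ak1, the kinase activated by Dele1, with 0.38 (SE 0.12, adjusted p = 0.0217). Nrf1, Gabpa and Hsf1 were not called in any comparison, with log2 fold changes at day 4 of -0.15, 0.13 and -0.11.

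The 4 regulators that were higher at day 8 than at day 4, as Lonp1 was, were Ppargc1a, Cebpb, Atf4 and Ddit3. Ppargc1a had a log2 fold change of 1.16 (SE 0.35, adjusted p = 0.0357) and Cebpb one of 0.59 (SE 0.18, adjusted p = 0.0407). Atf4 and Ddit3 take part in the integrated stress response. Atf4 was at 475 ± 27.0 CPM at day 0, 373 ± 57.8 at day 4 and 727 ± 84.5 at day 8, with a log2 fold change of 0.96 at day 8 against day 4 (SE 0.16, adjusted p = 0.00330). Ddit3, which encodes CHOP, was at 136 ± 12.4, 65.1 ± 30.1 and 529 ± 90.2 CPM on those days. It was lower at day 4 than at day 0 (log2 fold change -1.07, SE 0.28, adjusted p = 0.00880) and higher at day 8 than at day 4 (3.02, SE 0.30, adjusted p = 0.000305). Atf5, the factor known to govern the mitochondrial unfolded protein response, was higher at day 8 than at day 0 (0.53, SE 0.17, adjusted p = 0.0212) and was not called at day 8 against day 4 (0.50, SE 0.17, adjusted p = 0.0624). Hspd1 and Hspe1 were not called at day 8 against day 4 (log2 fold changes of -0.35 and -0.05, SE 0.18 and 0.13, adjusted p = 0.178 and 0.810). Whether these courses are linked was not tested.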

How the data were processed

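Total RNA was sequenced in 9 libraries, 3 each at days 0, 4 and 8, and groups follow the labels. The authors deposited raw counts of reads per Ensembl gene for 55359 genes, of which 30671 had no count. Per the submitters' processing notes, HISAT2, featureCounts and build GRCm39 were used. Their versions, the annotation release and the strand setting are not given in the sources used here, which leaves the counts of overlapping genes uncertain. Exon lengths and overlaps came from GENCODE M21, of another build, for 52083 genes (94.1%). The members and gene lists were chosen with earlier results of these data known.

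Library totals were 26387408 to 31474490 counts, and 3 counts in 1 library equal 0.0809 to 0.125 CPM, which covers counting error only. No 2 libraries of a day agreed within sampling noise (chi-square per degree of freedom 16.6 to 240.4). In R 4.3.3, edgeR 4.0.16 kept 14649 genes with filterByExpr (minimum count 10, minimum total count 15). All 9 libraries entered 1 quasi-likelihood fit with TMM scaling and no covariates, with 6 residual degrees of freedom, and each of 3 comparisons used its F-test, two-sided, at a Benjamini-Hochberg adjusted p of 0.05. CPM use TMM-scaled library sizes, and fold changes are those of the fit. The scripts were tested on simulated counts. Pair ratios used counts plus 0.5. Alternatives were RLE scaling, total counts, no filter, DESeq2 1.42.0, a replicate block, fits to 2 days only and leaving out each library. Genes named were all members, and in each other list up to 4 with the largest change among those called, with all stress factors tested. Pitrm1, which was not called, was named besides. Promoter windows and their coordinates are from RefSeq on GRCm38.p6.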

Additional observations from a re-analysis of the deposited data

How the results depend on the processing

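The rises at day 4 and day 8 against day 0 held in number under every alternative run, with 27 to 30 members higher and 1 lower at day 4, and 27 to 30 higher at day 8, where total counts also called 2 lower, and no member changed sign in either comparison. The comparison of days 8 and 4 did not hold in number: 5 members were called, against 8 with total counts, 8 with DESeq2, 1 with the libraries of those days alone, and 1 to 8 with 1 library left out. The counts over all genes were 3285, against 1901 with those libraries alone and 1894 to 4185 with 1 library left out. For the 46 other import, sorting and quality control genes they were 12, against 5 with those libraries alone and 5 to 13 with 1 library left out. The cause was not tested, although leaving out libraries or days also leaves fewer residual degrees of freedom. With the libraries that stood apart, day 4 replicate 2 and day 8 replicate 1, both left out, a choice made after seeing the data, 2 members were higher and 5 lower. Of the 14988 genes tested then, 1655 were higher and 1488 lower. Pair tests passed for 9 pairs, for 8 with a pseudocount of 2 and for 7 to 9 with 1 library left out.

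All 32 changes of sign were at day 8 against day 4, in 9 genes not called there. Tomm20 was at 0.01 on the log2 scale, and at -0.00824 with RLE scaling or with DESeq2, -0.0314 with total counts, -0.00122 with the replicate block, -0.0240 with the 2 days alone and -0.11 to 0.11 with 1 library left out. Timm8b was at 0.02, and at -0.00395 with total counts, -0.00629 with the 2 days alone, -0.13 with both libraries left out and -0.23 to 0.17 with 1 left out. Timm17a and Timm21 were at 0.15 and 0.32, and at -0.0274 and -0.0549 with both libraries left out. With 1 left out, Timm17a ran from -0.0865 to 0.28 and Timm21 from 0.12 to 0.475. Likewise Tomm40l ran from -0.23 to 0.0846, Tomm5 from -0.16 to 0.0662, Timm23 from -0.21 to 0.0459, Grpel1 from -0.22 to 0.11 and Hspe1 from -0.16 to 0.00837.

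Replicate numbers are shared between days, but the labels do not say that they mark a shared culture, so they were not taken to pair the libraries. Correlations of same-numbered deviations ran from -0.126 to 0.273, and those of different-numbered ones from -0.224 to 0.188. At day 8 against day 0 the same-numbered values were 0.273, 0.138 and 0.0859, each the highest for its day 8 library. Whether the libraries are paired was not tested. With the replicate block, 31 members and 8070 genes were called at day 4 and 30 members and 9368 genes at day 8, both against day 0. Between days 8 and 4 it called 4 members and 3105 genes, and Dnajc19 lost its call. Tomm6, Tomm20l and Timm8a2 had at most 3 counts in any library, so changes in them were not detectable here.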

Other observations

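Among presequence-processing genes, the steps after entry differed between peptidases. Immp2l, a subunit of the inner membrane peptidase, was higher by 2.79 on the log2 scale at day 4 than at day 0 (SE 0.39) and again by 1.37 at day 8 than at day 4 (SE 0.35, adjusted p = 0.0205 in edgeR's quasi-likelihood test). Mipep, the intermediate peptidase, was also higher in both steps, by 1.39 (SE 0.14) and 0.62 (SE 0.13, adjusted p = 0.0105). Xpnpep3, an aminopeptidase, was higher at day 4 than at day 0 by 1.36 (SE 0.17) and lower at day 8 than at day 4 (-0.91, SE 0.17, adjusted p = 0.00516). Pitrm1, which degrades cleaved presequences, was at 154 CPM at day 4 and 159 CPM at day 0, and was not called in any comparison.

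Clpb, a disaggregase of the intermembrane space, was likewise higher in both steps, by 1.43 (SE 0.22) and 0.99 (SE 0.22, adjusted p = 0.0105). Hscb, the J-protein that serves iron-sulfur cluster assembly, was not called at day 4 against day 0 (-0.13, SE 0.14, adjusted p = 0.437) and was at 41.9 ± 4.21 CPM at day 8, against 15.9 ± 1.56 CPM at day 4 (SD, n = 3 each; log2 fold change 1.40, SE 0.14, adjusted p = 0.000299).

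The day 8 libraries differed among themselves. Replicate 2 was the highest of its day for 24 of the 32 tested members, and how often this held over all genes was not counted. The CPM of replicate 1 exceeded that of replicate 3 by 0.55 for Hspa9, 0.55 for Hspd1, 0.54 for Timm21 and 0.53 for Tomm70a on the log2 scale. For the same genes it exceeded that of replicate 2 by 0.38, 0.58, 0.53 and 0.53. Across genes, which are not independent replicates, the log2 ratio of replicate 1 to replicate 2 had a Pearson correlation with log exon length of 0.49 over 32 members and 0.24 over 14622 tested genes. For replicate 1 to replicate 3 these were 0.28 and 0.11, and for replicate 2 to replicate 3 they were -0.35 and -0.14. Pseudogene copies of Hspd1 and Hspe1 took few counts, at most 72 over the 9 libraries for any 1 of them.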
